A study of Mus musculus with 6 samples.

Results

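The BCL2 family of survival and death genes was examined in RNA sequencing of B cells isolated from mouse lung. Its 10 members were matched by gene symbol among 22481 genes of the deposited expression table, and each had 1 row. They comprised 5 anti-apoptotic genes (Bcl2, Bcl2l1, Mcl1, Bcl2a1a and Bcl2a1b) and 5 pro-apoptotic genes, of which Bcl2l11, Bbc3 and Bid encode BH3-only proteins and Bax and Bak1 encode the effectors. The compared mice were 5xFAD animals, a model of brain amyloid deposition in which mutant human transgenes from inherited Alzheimer's disease, including APP, are driven by the neuronal Thy1 promoter, and wild-type (WT) animals. Animals of both genotypes were C57BL/6 and 3 months old, and each genotype gave 3 samples of cells taken from lung by magnetic selection. The labels do not say whether a sample came from 1 mouse or from a pool, so the p-values reflect the spread among samples, which may be technical. Sex is not given either.

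BCL2 proteins decide whether the outer mitochondrial membrane is opened to start the caspase cascade. Anti-apoptotic proteins hold the effectors BAX and BAK in check, BH3-only proteins relieve that restraint or switch the effectors on, and the freed effectors form pores that release cytochrome c. In B cells, MCL1, BCL-2 and BCL-XL carry survival signals from the antigen receptor, the BAFF receptor and CD40, and the BH3-only protein BIM, encoded by Bcl2l11, is a main trigger of death in unstimulated and self-reactive B cells.

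Libraries were shallow, with 693172 to 782297 estimated counts in 5xFAD and 628581 to 692912 in WT. The mitochondrial leucyl-tRNA synthetase gene Lars2 took 37.5% to 40.4% of them in 5xFAD and 39.8% to 45.7% in WT. This left 423160 to 466345 counts for all other genes in 5xFAD and 341461 to 402532 in WT, so each 5xFAD library was deeper outside Lars2. The 10 members together held 453 to 592 estimated counts per 5xFAD library and 403 to 412 per WT library. A count of 0 allowed up to 3 counts, which is 3.83 to 4.77 CPM (counts scaled to the library total), and this limit covers counting error only. B cell transcripts were present in every library, with Cd79a at 121 ± 32.0 FPKM in 5xFAD and 74.1 ± 18.5 FPKM in WT (SD, n = 3 each; FPKM, fragments normalised to transcript length and library size). Markers of endothelial cells, neutrophils, macrophages and epithelium were also present in every library, so the values are those of a mixture, in which fewer cells of a type cannot be told apart from less RNA per cell.

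No member passed the test between genotypes. Mcl1 dominated the family in every library at a similar level in both genotypes. In FPKM, Bcl2l1 and Bax were higher in all 3 5xFAD libraries than in any WT library, Bcl2l11 averaged more and Bcl2 less, with overlapping groups. Summed over members, pro-apoptotic FPKM were higher in each 5xFAD library than in each WT library, while anti-apoptotic sums overlapped. Pro-apoptotic counts scaled to the library total did not separate the genotypes, by a narrow margin.

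**Figure D1:**
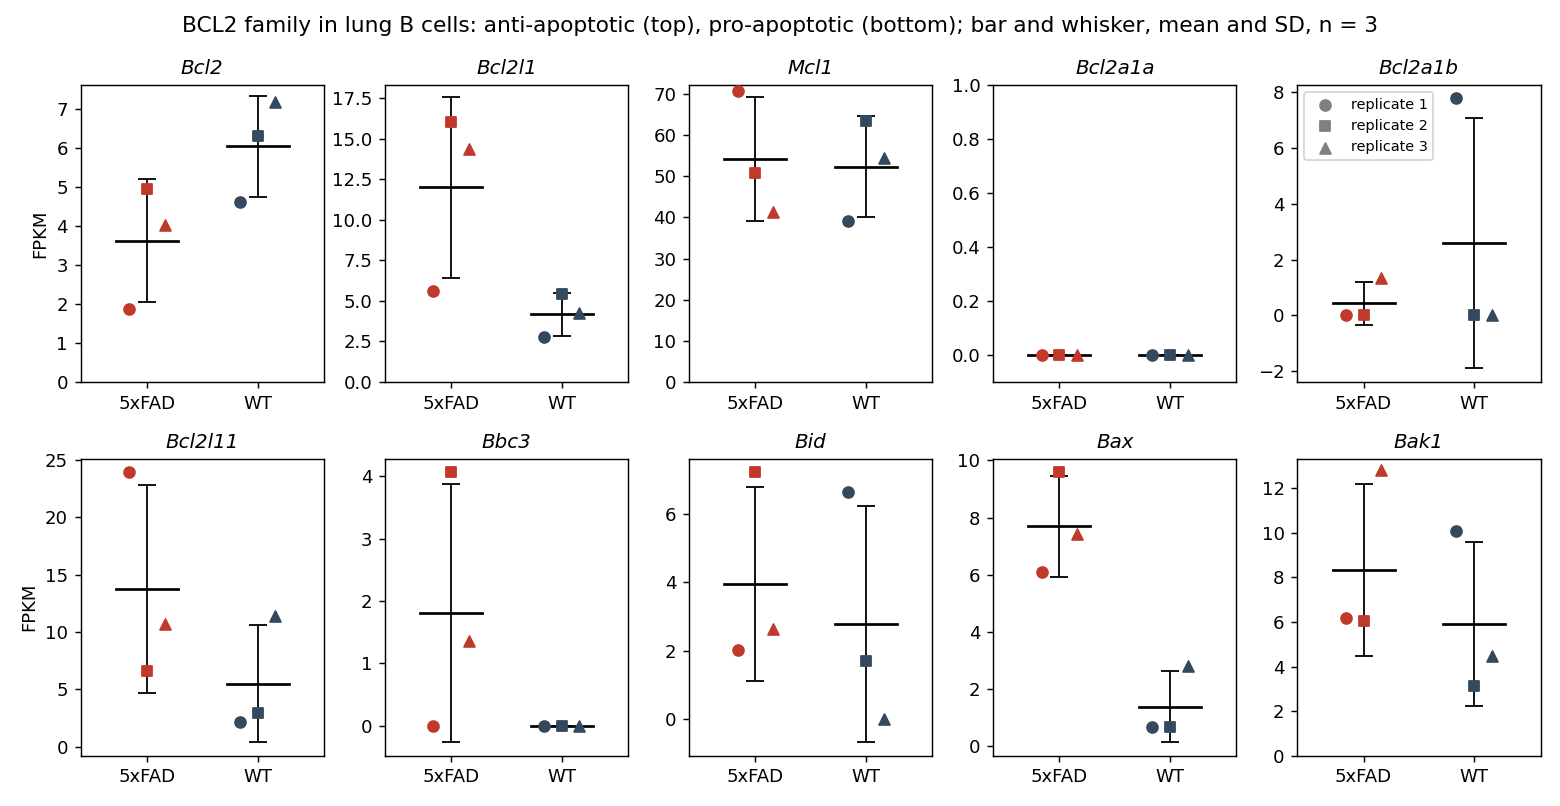
FPKM of each BCL2 family member in the 3 5xFAD and 3 WT libraries, with anti-apoptotic members in the upper row and pro-apoptotic members in the lower row; points are libraries, the bar is the mean and the whisker the SD, and each panel has its own axis. Groups do not overlap for Bcl2l1 (5.63 to 16.02 in 5xFAD against 2.78 to 5.45 in WT) and Bax (6.09 to 9.59 in 5xFAD against 0.671 to 2.83 in WT).

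Among the anti-apoptotic genes, Mcl1, whose short-lived protein is needed by B cells at nearly every stage, was listed at 70.7, 50.8 and 41.3 FPKM in 5xFAD replicates 1, 2 and 3 and at 39.2, 63.5 and 54.4 FPKM in WT replicates 1, 2 and 3. The ranges lay almost on top of each other, with means of 54.2 ± 15.0 FPKM in 5xFAD and 52.4 ± 12.3 FPKM in WT (SD, n = 3 each). Estimated counts were 385, 332 and 218 in 5xFAD and 240, 275 and 218 in WT, the deepest coverage of any member. The log2 fold change of counts, 5xFAD over WT, was 0.25 (SE 0.34, 95% interval -0.43 to 0.94; edgeR quasi-likelihood test, adjusted p = 0.833 after Benjamini-Hochberg correction). Mcl1 ranked 1 among members in each library. It stood 2.95, 3.17 and 2.88 times above the next member in the 5xFAD libraries and 3.88, 10.1 and 4.79 times above it in the WT libraries. It made up 76.3 ± 12.3% of anti-apoptotic FPKM in 5xFAD and 79.7 ± 6.64% in WT.

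Bcl2l1, which encodes BCL-XL, the survival protein induced when B cells are activated through CD40 or the antigen receptor, was listed at 5.63, 16.02 and 14.4 FPKM in 5xFAD and at 2.78, 5.45 and 4.28 FPKM in WT. Its counts were 23.9, 35.0 and 51.4 in 5xFAD and 12.9, 18.1 and 19.8 in WT. On either scale each 5xFAD library was above each WT library, although 5xFAD replicate 1 exceeded the highest WT library only slightly. Set against totals outside Lars2, the counts overlapped. There 5xFAD replicate 1 had 23.9 of 433338 counts, a smaller share than the 19.8 of 341461 in WT replicate 3. The log2 fold change was 0.95 (SE 0.83, 95% interval -0.76 to 2.65; edgeR adjusted p = 0.728), so the difference did not pass. On the log2(FPKM + 1) scale the difference of means was 1.25.

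Bcl2, the founding survival gene of the family, pointed the other way. It had 1.88, 4.94 and 4.03 FPKM in 5xFAD and 4.62, 6.30 and 7.18 FPKM in WT, and 26.9, 70.9 and 57.8 counts in 5xFAD against 66.2, 90.4 and 103 counts in WT. The lowest library was 5xFAD replicate 1, and the highest 5xFAD library lay just above the lowest WT library, so the groups overlapped. The log2 fold change was -0.92 (SE 0.50, 95% interval -1.96 to 0.11; edgeR adjusted p = 0.485). The log2 ratio of Bcl2l1 to Bcl2 FPKM was 1.58, 1.70 and 1.83 in the 5xFAD libraries and -0.73, -0.21 and -0.75 in the WT libraries. Bcl2l1 was thus the more abundant of the pair in 5xFAD and Bcl2 in WT, in all 3 libraries of each genotype. This pair was chosen after its values were seen, and its ratio was not tested.

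The A1 genes Bcl2a1a and Bcl2a1b encode a short-lived survival protein induced by NF-kB in activated B cells and abundant in neutrophils. They were at the limit of detection. Bcl2a1a was listed at 0 in all 6 libraries, and Bcl2a1b at 0 or near it in 4 libraries, at 1.34 FPKM in 5xFAD replicate 3 and at 7.78 FPKM in WT replicate 1, on 1.83 and 10.6 counts. Another copy, Bcl2a1d, was listed at 1.505, 0 and 2.07 FPKM in 5xFAD and at 0 in every WT library. Many reads of these copies cannot be told apart. Over their 519 coding bases Bcl2a1a and Bcl2a1b were 97.9% identical, Bcl2a1a and Bcl2a1d 98.7%, and Bcl2a1b and Bcl2a1d 98.8%. Of all 50-base windows in the coding sequence, 42.8%, 74.0% and 52.3% were letter for letter the same in these pairs. The first 90 coding bases, from the GENCODE M21 transcripts of GRCm38, hold 6 of the 12 positions at which the copies differ; they are shown to make the likeness visible, with those positions in capitals.
Bcl2a1a: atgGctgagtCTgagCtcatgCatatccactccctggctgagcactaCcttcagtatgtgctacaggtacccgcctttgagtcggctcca
Bcl2a1b: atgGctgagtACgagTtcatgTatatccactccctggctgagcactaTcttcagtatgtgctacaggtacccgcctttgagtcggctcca
Bcl2a1d: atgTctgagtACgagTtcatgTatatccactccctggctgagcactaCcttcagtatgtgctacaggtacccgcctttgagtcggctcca
All of these genes lie on chromosome 9, with coding regions at 88957051 to 88962267 (plus strand) for Bcl2a1a, 89199360 to 89207677 (plus) for Bcl2a1b and 88723437 to 88731719 (minus) for Bcl2a1d. The zeros and the single high value of separate copies are therefore uncertain. Bcl2a1b alone had a log2 fold change of -2.30 (SE 1.96; edgeR adjusted p = 0.714), and the 3 copies summed had one of -0.62 (SE 1.80; edgeR adjusted p = 0.940).

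Among the BH3-only genes, Bcl2l11, the gene of BIM, had the largest mean difference in FPKM, 8.26, and the smallest p of the family in the edgeR fit. It was listed at 23.9, 6.62 and 10.7 FPKM in 5xFAD and at 2.16, 2.94 and 11.4 FPKM in WT, with 134, 43.5 and 49.5 counts in 5xFAD and 6.92, 14.1 and 44.7 counts in WT. The groups overlapped, since WT replicate 3 was above 2 of the 5xFAD libraries, and 5xFAD replicate 1 was more than double any other library. The log2 fold change was 1.68 (SE 0.71, 95% interval 0.22 to 3.14; unadjusted p = 0.0253, edgeR adjusted p = 0.337). Without WT replicate 3 it was 2.72 and passed (edgeR adjusted p = 0.0487). Without 5xFAD replicate 1 it was 0.80 (edgeR adjusted p = 0.998), so these libraries decided the size and the call; over all alternatives the adjusted p ran from 0.0487 to 0.998.

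Bid, which links death receptors to mitochondria after cleavage by caspase-8, was at 2.03, 7.23 and 2.64 FPKM in 5xFAD and at 6.66, 1.69 and 0 FPKM in WT. Neither genotype was regularly higher, and the log2 fold change was -0.15 (SE 1.36, 95% interval -2.94 to 2.64; edgeR adjusted p = 0.985), with a positive difference of 0.71 on the log2(FPKM + 1) scale. Bbc3, the gene of PUMA, a BH3-only protein induced by p53, was listed at 0, 4.07 and 1.35 FPKM in 5xFAD and at 0 in every WT library. These values rest on 0, 2.84 and 4.59 counts, and the mean of 0.903 FPKM lay under the expression filter of 1 FPKM, so Bbc3 was not tested.

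Of the effectors, Bax was listed at 6.09, 9.59 and 7.44 FPKM in 5xFAD and at 0.671, 0.678 and 2.83 FPKM in WT. All 3 5xFAD libraries were above all WT libraries, and the lowest 5xFAD value was more than double the highest WT value. Means were 7.71 ± 1.77 FPKM in 5xFAD and 1.39 ± 1.24 FPKM in WT (SD, n = 3 each). Bax is a short transcript and the counts were small, 8.98, 14.2 and 11.01 in 5xFAD and 0.989, 1.004 and 4.16 in WT. Summed and set against library totals, 34 counts in 5xFAD against 6 in WT gave a ratio of 5.17, with an exact 95% interval of 2.15 to 15.1 that covers counting error only. With a spread between libraries included, which edgeR estimates partly from all tested genes, the log2 fold change was 2.24 and Bax did not pass (SE 1.58, 95% interval -0.99 to 5.47, edgeR adjusted p = 0.633). Its exons overlap those of Gm45808 on the same strand, so its counts are uncertain to that extent.

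Bak1, the second effector, was at 6.18, 6.06 and 12.8 FPKM in 5xFAD and at 10.1, 3.14 and 4.47 FPKM in WT, with overlapping groups. Its counts ran from 5.98 to 47.7 in 5xFAD and from 7.03 to 37.6 in WT, and the log2 fold change was -0.07 (SE 1.02, 95% interval -2.16 to 2.01; edgeR adjusted p = 0.992). On the log2(FPKM + 1) scale the difference had the opposite sign, 0.49. No direction can be given for Bid or Bak1.

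Over the family, 8 of 10 members passed the filter of a mean of 1 FPKM and 0 of the 8 were called at an adjusted p under 0.05 by edgeR, against 11 of 9651 tested genes (0.114%). DESeq2 and limma also called 0. At an unadjusted p under 0.05 in the edgeR fit, 1 tested member was higher, Bcl2l11, and 0 were lower, against a background of 8.43% higher and 3.55% lower. In the 3 limma fits on FPKM that member was Bax instead (limma unadjusted p = 0.0137, 0.0184 and 0.0224). Bcl2l11 had limma unadjusted p = 0.103, 0.106 and 0.139, so the member depended on the method. Groups did not overlap, with 5xFAD above WT, for 2 of the 8 tested members, against 13.0% of all tested genes, and 0 had 5xFAD below WT, against 4.42%. With 8 members these shares say little. The median log2 fold change was 0.09 over the tested members, -0.33 over the 4 tested anti-apoptotic genes and 0.80 over the 4 tested pro-apoptotic genes, against 0.11 over all tested genes. On each side 2 of the 4 genes had a fold change above 0, so the sides did not differ in direction.

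**Figure D2:**
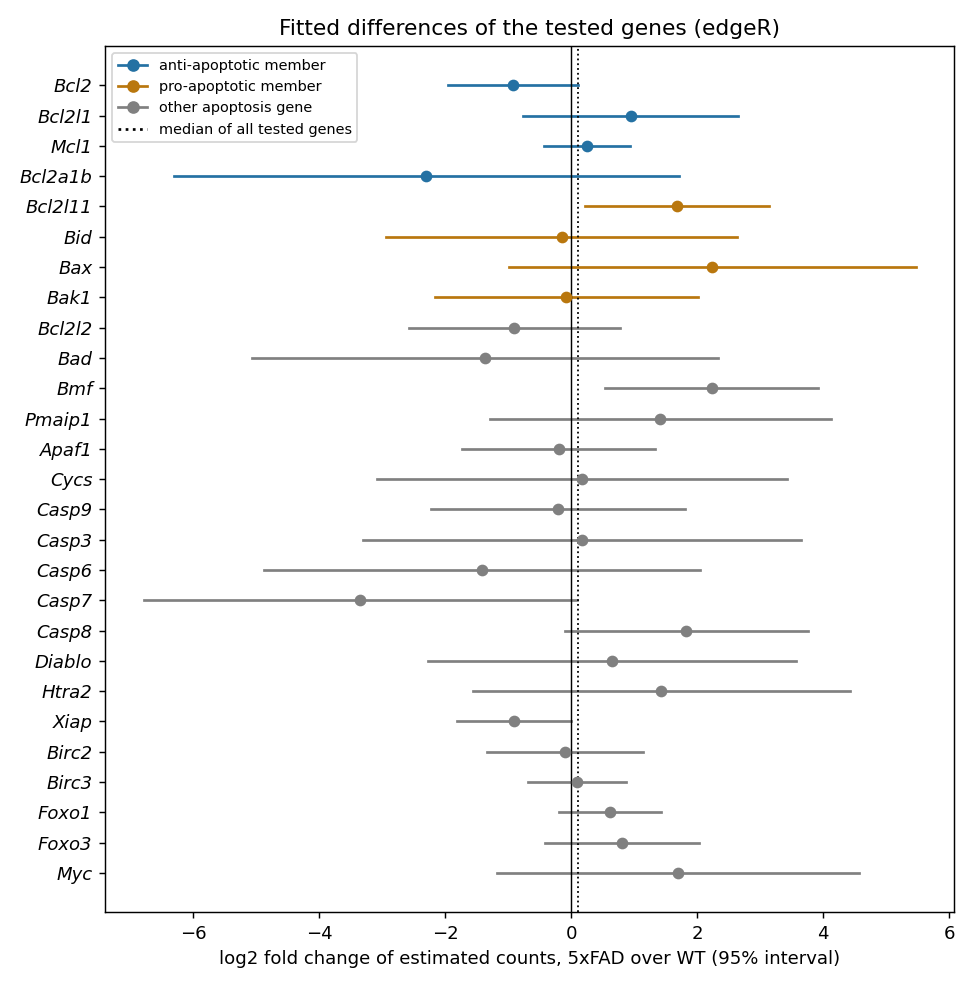
Log2 fold change of estimated counts, 5xFAD over WT, with its 95% interval from the edgeR fit, for the 8 tested members and 19 other tested apoptosis genes; the dotted line is the median of all tested genes (0.11). The intervals of Bcl2l11 (0.22 to 3.14) and Bmf (0.54 to 3.92) exclude 0, and neither gene passed adjustment over 9651 genes.

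Set against each other in FPKM, the pro-apoptotic sums separated the genotypes and the anti-apoptotic sums did not. Anti-apoptotic members summed to 78.2, 71.7 and 61.0 FPKM in 5xFAD and 54.4, 75.3 and 65.8 FPKM in WT, with overlapping groups. Pro-apoptotic members summed to 38.2, 33.6 and 34.9 FPKM in 5xFAD and 19.6, 8.45 and 18.7 FPKM in WT, with every 5xFAD library above every WT library. The sums averaged 35.6 ± 2.39 FPKM in 5xFAD and 15.6 ± 6.18 FPKM in WT (SD, n = 3 each). Pro-apoptotic counts scaled to the library total did not separate, by a narrow margin: 5xFAD replicate 2 had 85.1 of 782297 counts and WT replicate 1 had 73.2 of 669030. Set against totals outside Lars2 they also overlapped, with 85.1 of 466345 in 5xFAD replicate 2 and 65.5 of 341461 in WT replicate 3. Of the mean difference of 20.01 FPKM, Bcl2l11 gave 8.26, Bax 6.31, Bak1 2.44, Bbc3 1.81 and Bid 1.19. The parts of Bak1 and Bid had no like difference in counts. Mean counts were 21.4 in 5xFAD and 20.4 in WT for Bak1, and 11.1 in 5xFAD and 11.6 in WT for Bid. The higher sum came from different genes in different libraries: Bcl2l11 made up 62.6% of it in 5xFAD replicate 1, 19.7% in replicate 2 and 30.6% in replicate 3. The BH3-only genes alone summed to 14.7 to 25.9 FPKM in 5xFAD and 4.63 to 11.4 FPKM in WT, and the effectors to 12.3 to 20.2 FPKM in 5xFAD and 3.82 to 10.8 FPKM in WT. In estimated counts the effectors did not separate the genotypes. Bak1 alone held 37.6 counts in WT replicate 1, against 5.98 for Bak1 and 8.98 for Bax in 5xFAD replicate 1.

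The log2 ratio of anti- to pro-apoptotic FPKM was 1.03, 1.10 and 0.80 in the 5xFAD libraries and 1.47, 3.16 and 1.82 in the WT libraries. Anti-apoptotic transcripts were in excess in all 6 libraries, and the excess was smaller in each 5xFAD library than in each WT library. Group means were 0.98 ± 0.15 in 5xFAD and 2.15 ± 0.89 in WT (SD, n = 3 each), a difference of -1.17. Without WT replicate 2, the highest value, the difference was -0.67. The ratio is a score over members that were chosen with results of these data known, so it carries no p. Groups did overlap when estimated counts replaced FPKM (1.41 to 2.36 in 5xFAD and 2.17 to 3.72 in WT), when Mcl1 was left out (-2.35 to -0.68 in 5xFAD and -0.70 to 0.48 in WT) and when the other BCL2 relatives were added (-0.11 to 0.68 in 5xFAD and 0.42 to 2.62 in WT).

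**Figure D3:**
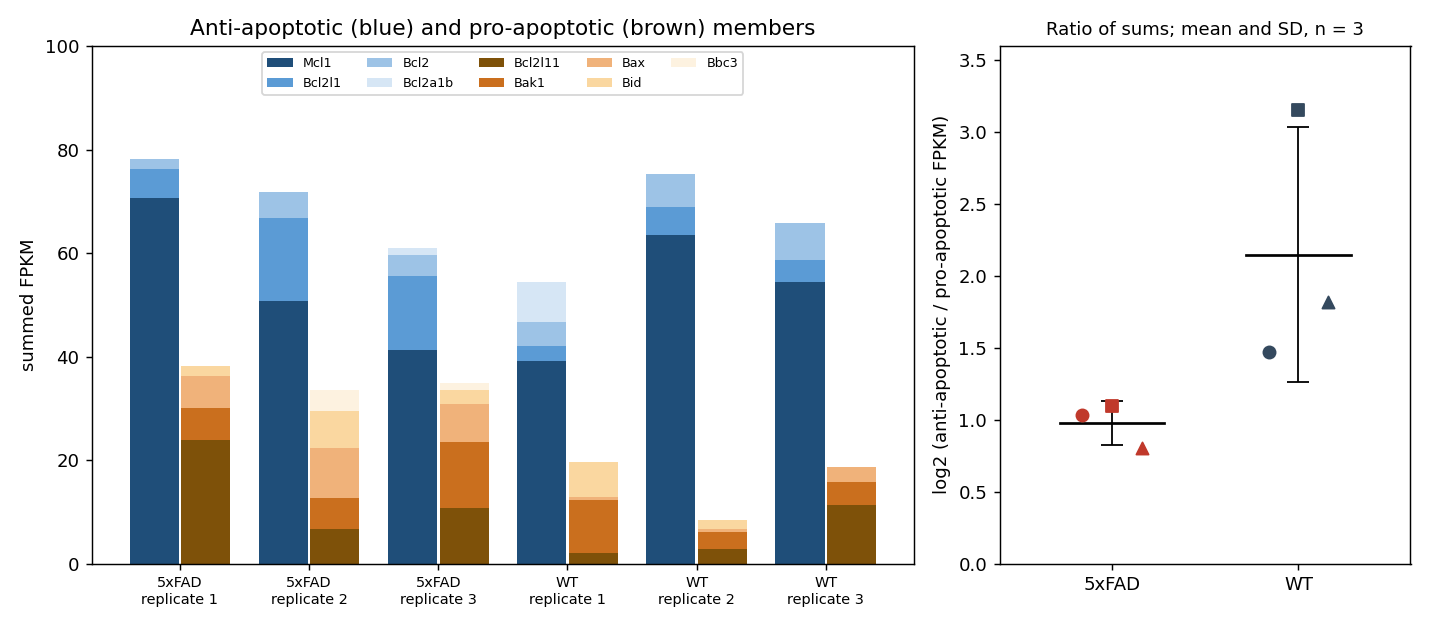
Left, FPKM of anti-apoptotic (blue) and pro-apoptotic (brown) members stacked for each library. Right, log2 ratio of the sums, with the mean and SD of 3 libraries per genotype; pro-apoptotic sums are 33.6 to 38.2 in 5xFAD and 8.45 to 19.6 in WT, and the ratio is 0.80 to 1.10 in 5xFAD and 1.47 to 3.16 in WT.

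Cell type markers also differed between the libraries. All 8 B cell markers had higher mean log2(FPKM + 1) in 5xFAD, and their sum was 336 to 605 FPKM in 5xFAD and 263 to 323 FPKM in WT, with Cd79b at 78.0 ± 34.5 FPKM in 5xFAD and 43.6 ± 17.5 FPKM in WT. All 8 endothelial markers were lower, with sums of 264 to 349 FPKM in 5xFAD and 360 to 469 FPKM in WT, led by Pecam1 at 83.3 ± 41.8 FPKM in 5xFAD and 91.0 ± 12.02 FPKM in WT and Calcrl at 74.0 ± 10.9 FPKM in 5xFAD and 90.2 ± 14.7 FPKM in WT. The 6 T cell markers in the table summed to 14.1 to 28.01 FPKM in 5xFAD and 1.84 to 7.86 FPKM in WT, with Lck at 14.9 ± 5.38 FPKM in 5xFAD and 1.68 ± 1.21 FPKM in WT and Cd3e at 2.54 ± 0.404 FPKM in 5xFAD and 1.15 ± 1.66 FPKM in WT. Of these 6 markers, 4 had a higher and 2 a lower mean log2(FPKM + 1) in 5xFAD, and Lck and Cd8a separated the genotypes. Cd8a was low, at 0.497, 0.629 and 1.52 FPKM in 5xFAD and 0 in WT. Each 5xFAD library was above each WT library for 3 of 8 B cell and 2 of 6 T cell markers, against 13.0% of all tested genes. Each was below for 2 of 8 endothelial markers, against 4.42%. Cd3d, a defining T cell marker, was at 0 in all 5xFAD libraries and at 4.54, 0.835 and 0 FPKM in WT. The B cell and T cell sums, like the pro-apoptotic sums in FPKM, were higher in each 5xFAD library than in each WT library, and the endothelial sums were lower. Lck made up most of the T cell sum in each 5xFAD library, at 10.7, 13.1 and 21.0 FPKM. In WT it was at 0.865, 3.06 and 1.11 FPKM, and without Lck the T cell sums overlapped. Neutrophil markers, which matter here because neutrophils carry much Mcl1 and A1, summed to 250 to 554 FPKM in 5xFAD and 205 to 513 FPKM in WT. S100a8 was at 158 ± 74.1 FPKM in 5xFAD and 161 ± 83.9 FPKM in WT, S100a9 at 181 ± 110 FPKM in 5xFAD and 124 ± 90.7 FPKM in WT, and Ly6g was at 0 in all 6 libraries. Monocyte and macrophage markers summed to 178 to 478 FPKM in 5xFAD and 208 to 339 FPKM in WT, most of it Lyz2 (281 ± 146 FPKM in 5xFAD and 260 ± 74.97 FPKM in WT), with Cd68 at 10.9 ± 8.37 FPKM in 5xFAD and 11.5 ± 1.89 FPKM in WT and Csf1r at or near 0 in 5 libraries. Epithelial markers summed to 148 to 225 FPKM in 5xFAD and 172 to 380 FPKM in WT, led by Sftpc at 111 ± 22.2 FPKM in 5xFAD and 95.8 ± 47.6 FPKM in WT and Scgb1a1 at 52.1 ± 23.8 FPKM in 5xFAD and 162 ± 106 FPKM in WT, while Epcam was at 0 in all 5xFAD libraries and 2 WT libraries. Fibroblast markers summed to 47.8 to 122 FPKM in 5xFAD and 29.8 to 58.3 FPKM in WT, led by Col1a1, which was at 103 FPKM in 5xFAD replicate 1 and at 7.16 to 32.7 FPKM in the other libraries, and by Col1a2 at 11.9 ± 7.55 FPKM in 5xFAD and 11.9 ± 2.99 FPKM in WT. Most members can be expressed by several of these cell types. The log2 ratio of pro-apoptotic to B cell marker FPKM was -3.82, -4.17 and -3.27 in 5xFAD and -4.04, -4.96 and -3.82 in WT, with overlapping groups. For anti-apoptotic FPKM the same log2 ratio was -2.78, -3.08 and -2.46 in 5xFAD and -2.57, -1.80 and -2.00 in WT, again with overlapping groups. Set against the B cell markers, neither side of the family thus separated the genotypes; 2 of 3 5xFAD libraries were below every WT library in the anti-apoptotic ratio. The part of cell composition in the values of single members and in the sums was not tested.

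For several members FPKM and counts were not proportional across libraries. Among genes with a single annotated transcript of at least 1500 bases, 1 FPKM corresponded to a median of 1.94 to 1.95 counts per kilobase in all 6 libraries, so counts divided by FPKM give an implied transcript length. For Bcl2 this length was 7359 to 7406 bases in every library, near the longest annotated transcript of 7191 bases, and for Bax it was 758 to 760 bases wherever at least 3 counts were present. Bcl2 and Bax therefore compare alike on either scale. Bcl2l1 gave 2192, 1122 and 1840 bases in 5xFAD and 2388, 1702 and 2383 bases in WT, within the 472 to 2568 bases of its annotated coding transcripts. The shortest lengths, in 5xFAD replicate 2, WT replicate 2 and 5xFAD replicate 3, raise its FPKM relative to its counts in those libraries. The groups stay apart in FPKM and in estimated counts, but not in counts set against totals outside Lars2. Mcl1 gave 2807, 3353 and 2715 bases in 5xFAD and 3161, 2218 and 2072 bases in WT. Bcl2l11, which is spliced into several BIM isoforms of different potency, gave 2879, 3374 and 2383 bases in 5xFAD and 1657, 2455 and 2031 bases in WT, so its count difference exceeds its FPKM difference. Bak1 varied most, by 3.85 times between libraries, from 499 bases in 5xFAD replicate 1 to 1922 bases in WT replicate 1, and 499 bases is under its shortest annotated coding transcript of 902 bases. Isoform levels themselves were not analysed here.

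**Figure D4:**
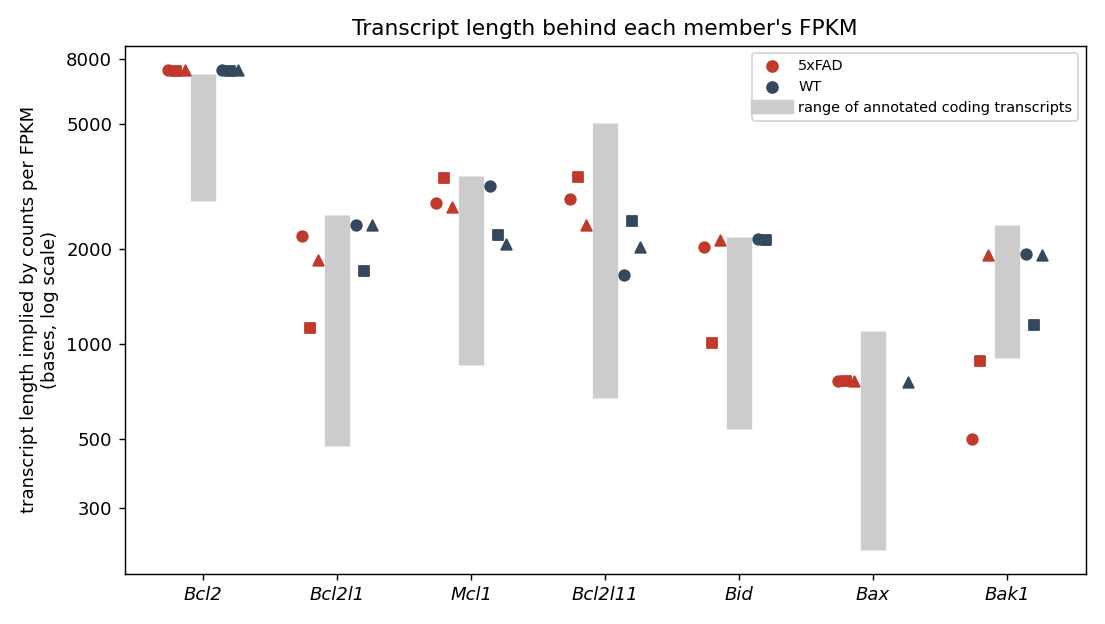
Transcript length implied by counts per FPKM (bases, log scale) in each library, 5xFAD left and WT right of each grey bar, for members with at least 3 counts in 4 or more libraries; the grey bar spans the annotated protein-coding transcripts. Bcl2 and Bax have the same length in every library shown, and Bak1 ranges from 499 to 1922 bases.

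The wider apoptosis pathway gave no call either. Of 25 other apoptosis genes listed by role, 19 were tested and 0 passed at an adjusted p under 0.05 by edgeR, DESeq2 or limma. In the edgeR fit 1 was higher and 0 were lower at an unadjusted p under 0.05, and the median log2 fold change was 0.17. Bmf, a BH3-only gene whose protein is released from the cytoskeleton when cells lose attachment, was the 1 at an unadjusted p under 0.05. It had 76.6, 4.09 and 11.6 FPKM in 5xFAD and 1.08, 2.08 and 2.44 FPKM in WT, and 170, 19.9 and 13.8 counts in 5xFAD against 9.89, 19.1 and 14.6 counts in WT. The log2 fold change of 2.23 (SE 0.82; unadjusted p = 0.0115, edgeR adjusted p = 0.302) rested on 5xFAD replicate 1, the library also highest in Bcl2l11, and was -0.05 without it; in counts the groups overlapped. The other most abundant genes were inhibitors of apoptosis. Birc3, the NF-kB target cIAP2, was at 49.6, 70.6 and 75.6 FPKM in 5xFAD and 31.1, 53.4 and 255 FPKM in WT, with a log2 fold change of counts of 0.09 (SE 0.38; edgeR adjusted p = 0.958). Xiap, the direct caspase inhibitor, was at 4.05, 18.2 and 9.32 FPKM in 5xFAD and 12.8, 16.5 and 8.29 FPKM in WT (log2 fold change -0.90, SE 0.44; edgeR adjusted p = 0.417).

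For 4 of the 19 tested genes (21.1%, against 13.0% of all tested genes) each 5xFAD library was above each WT library: Bmf, Casp8, Htra2 and Foxo1. The last 3 were named after their values were seen. Casp8, the initiator caspase of death receptors, had 5.70, 8.18 and 8.72 FPKM in 5xFAD and 3.00, 1.74 and 1.26 FPKM in WT (log2 fold change 1.83, SE 0.94; edgeR adjusted p = 0.452). Htra2, a mitochondrial protease released with cytochrome c, had 6.23, 8.10 and 6.67 FPKM in 5xFAD and 5.74, 2.40 and 0 FPKM in WT (log2 fold change 1.43, SE 1.46; edgeR adjusted p = 0.771). Foxo1, a transcription factor of B cell development that can raise Bcl2l11, had 14.2 FPKM in each 5xFAD library and 10.2, 6.66 and 8.79 FPKM in WT (log2 fold change 0.62, SE 0.39; edgeR adjusted p = 0.579). Trp53, the gene of p53 and a transcriptional activator of Bax and Bbc3, had 13.1, 9.84 and 6.203 counts in 5xFAD and was listed at no more than 0.000416 counts in the WT libraries. Such values lie far under a single read and can be failed estimates, its mean of 0.922 FPKM was under the filter, and it was not tested. Trp53 was named outside the selection rules given below.

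Upstream sequence of Bcl2l11, Bcl2l1 and Bax, the members with the largest mean FPKM differences, was searched on both strands for letters recognised by the transcription factors listed here. These are the FoxO core TGTTTAC, the E-box CACGTG bound by MYC, the NF-kB letters GGGA and TTCC with any 2 bases between them, and the p53 half-site. The 250 bases before the start site nearest the 5′ end of each gene's locus are given below, from RefSeq (GRCm38.p6), with matches in capitals.
Bcl2l11, chr2:128125788-128126037, plus strand: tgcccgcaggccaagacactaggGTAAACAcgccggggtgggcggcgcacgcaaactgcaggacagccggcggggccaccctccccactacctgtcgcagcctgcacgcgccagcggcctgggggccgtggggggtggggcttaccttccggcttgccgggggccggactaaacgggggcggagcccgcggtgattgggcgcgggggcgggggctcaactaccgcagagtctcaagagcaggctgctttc
Bcl2l1, chr2:152831729-152831978, minus strand: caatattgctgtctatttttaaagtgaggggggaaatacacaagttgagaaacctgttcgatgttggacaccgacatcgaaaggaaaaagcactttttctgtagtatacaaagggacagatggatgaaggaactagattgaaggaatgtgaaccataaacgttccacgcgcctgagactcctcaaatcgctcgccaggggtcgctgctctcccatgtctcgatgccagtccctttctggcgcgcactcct
Bax, chr7:45466899-45467148, minus strand: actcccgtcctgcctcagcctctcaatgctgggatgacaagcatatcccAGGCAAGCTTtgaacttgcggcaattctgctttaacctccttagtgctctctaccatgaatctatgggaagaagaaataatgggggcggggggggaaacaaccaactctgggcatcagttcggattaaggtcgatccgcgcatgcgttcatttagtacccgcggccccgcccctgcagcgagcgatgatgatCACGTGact
The Bcl2l11 window holds the FoxO letters, on the opposite strand, 227 bases before the start. The Bax window holds a p53 half-site match 201 bases and an E-box 9 bases before the start, and the Bcl2l1 window holds none of the 4 motifs. Among 32851 mouse windows of the same length, 3.17% hold the FoxO letters, 6.02% the E-box, 1.21% the NF-kB letters and 7.13% a p53 half-site. Over the windows of all 10 members the FoxO letters, the E-box and the p53 half-site each occur in 1, and the NF-kB letters in 0. A match describes the letters only.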

How the data were processed

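RNA of lung B cells from 3 5xFAD and 3 WT samples was sequenced after ribosomal RNA depletion with a stranded kit (labels' protocols). Per the submitters' processing notes, the tools were HISAT2 2.0.4, cutadapt 1.9.3, Cuffdiff and Cufflinks, whose roles are not stated, and the build was mm10 or GRCm38. The deposited table holds FPKM values and estimated counts per sample, per the file headers. Many counts are not whole, and some lie far under a single read. Rows sharing a symbol (162 rows on 79 symbols) were summed. Column names were matched to the sample descriptions.

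Members, lists and tests were chosen with earlier results of these data known. The genes named by rule are all members and, of the other apoptosis genes, those at an unadjusted p under 0.05 and the 3 with the highest mean FPKM. Of each marker list they are the 2 with the highest mean FPKM. Outside these rules, Casp8, Htra2, Foxo1, Trp53 and Bcl2a1d were named from the other apoptosis genes. Cd3d, Cd8a, Csf1r, Ly6g and Epcam were named from the marker lists in the same way. Estimated counts were rounded and tested under R 4.3.3 with edgeR 4.0.16 (quasi-likelihood, trended dispersion, TMM factors) over the 9651 genes whose mean reached 1 FPKM, genotype as the only term, with Benjamini-Hochberg adjustment. The fit was also run on simulated counts, whose outcome is not given here. The biological coefficient of variation, the spread between libraries beyond counting error, was 0.752. With 3 libraries per genotype, a gene that was not called is not thereby shown to be equal. Each SE is the size of the log2 fold change divided by the root of its F statistic. Alternatives used DESeq2 1.42.0, limma 3.58.1, other filters and pseudocounts, a replicate block and leaving out each library. Sums and ratios over members are described without a test. Chi-square per degree of freedom ran from 6.27 to 19.1 over library pairs, so none agreed within sampling noise.

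In the table, 33 genes are listed at the locus of Mcl1, 9 at that of Bak1, 7 at that of Bcl2a1a and 2 at those of Bid and Bcl2a1b. In GENCODE M21, exons of Bax and Bcl2a1b overlap exons of another gene on the same strand, and those of Bcl2, Bid and Bak1 exons of a gene on the opposite strand. Whether counting used strand, and which annotation it used, is not stated in these sources. Bcl2a1a and Bcl2a1d were matched to GENCODE by symbol.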

Additional observations from a re-analysis of the deposited data

How the results depend on the processing

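The 0 calls among members held under 9 alternatives and in 5 of 6 fits without 1 library (0 to 1 calls); the exception was Bcl2l11 without WT replicate 3. The 0 calls among the other apoptosis genes held in all 14. The 11 calls over all genes became 7 with relative log expression factors, 62 with DESeq2, 62 without a filter, 5 from a mean of 5 FPKM, and 0 with each of the 3 limma fits, on log2(FPKM + 1), log2(FPKM + 0.1) and quantile-normalized values. They were 3, 18 and 30 without 5xFAD replicates 1, 2 and 3, and 47, 1 and 75 without WT replicates 1, 2 and 3. The paired fit with a replicate block gave 26 calls over all genes; deviations of same-numbered samples correlated at 0.000426, -0.00434 and -0.0233, so the numbers share no more than a label, and the block changed no call among members. Quantile normalization moved the share of higher genes at an unadjusted p under 0.05 to 50.9%, against 70.4%. Over all genes the median difference on the log2 scale was 0.11, and 0.24, 0.43 and 0.01 in the limma fits.

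Bcl2, Bcl2l1, Bcl2l11, Bax and Bcl2a1b kept their direction under every alternative that could be fitted. Signs turned for Bid, Bak1, Birc3 and Mcl1, whose fold changes were near 0, and for Bmf without 5xFAD replicate 1. In the limma fits, in the order above, the difference was 0.71, 1.72 and 0.48 for Bid, 0.49, 0.57 and 0.44 for Bak1, and -0.23, -0.23 and -0.41 for Birc3; Mcl1 turned to -0.0090 on quantile-normalized values. Bid was 0.84 with the replicate block and, in an alternative added after seeing the data, 0.16 when summed with Bcl2l13. Limma used FPKM, whose transcript length per count differs between libraries. Without 1 library, log2 fold changes ran from -0.79 to 1.48 for Bid, -1.53 to 0.60 for Bak1, -0.081 to 0.37 for Mcl1, -0.18 to 0.32 for Birc3 and -0.049 to 2.58 for Bmf. The difference of the log2 anti- to pro-apoptotic ratio stayed negative in all 11 alternatives, from -1.51 to -0.67. Bcl2a1b without WT replicate 1, and Bcl2, Bax, Bid, Bcl2a1b, Casp8 and Htra2 from a mean of 5 FPKM, were not fitted, being under the filter. Depth limits Bax, Bid, Bbc3 and the A1 genes most.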
